A study of Mus musculus with 32 samples.

Results

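Tumors from *Dnase1l3*-KO mice were compared with whole colon from KO mice at D80 of the azoxymethane/dextran sulfate sodium (AOM/DSS) procedure, tumor minus colon, over all expressed genes. The members were chosen by their sample labels: 3 tumor libraries (mice 527, 543 and 544) and 4 D80 colon libraries (mice 527, 535, 543 and 544), 7 of the 32 RNA-Seq libraries of the series. Mice 527, 543 and 544 gave both samples, and each library came from 1 mouse. All 7 samples carried the same full-body constitutive deletion of *Dnase1l3* (Mut in the labels) on a C57BL/6 background, a gene whose product is a secreted DNase of dendritic cells and macrophages, and every mouse had received AOM intraperitoneally at 8 mg/kg and then 3 cycles of DSS in drinking water. The study's methods give an age of 3 months at AOM injection, and D80 colon was taken 24 days after the last cycle. By their labels the tumors were taken as tumor only and the D80 samples as whole colon, so the colon samples could also hold muscle, nerve, fat and lymphoid tissue. Which segment of the colon was taken, and whether the D80 colon of these mice held tumor tissue, is not stated. WT tumors (n = 5) and WT D80 colon (n = 4) from mice given the same treatment served only for a side by side reading.

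AOM is a mutagen that the colon epithelium is exposed to after metabolic activation, and DSS damages the epithelium and drives repeated rounds of colitis. Tumors of this model arise in the distal colon and typically carry an activated Wnt pathway, in which stabilized β-catenin joins TCF/LEF factors on target genes, several of which encode inhibitors of the same pathway. In the intact colon, stem cells at the crypt base depend on Wnt ligands and R-spondins from the stroma, while BMP signals toward the surface accompany the maturation of absorptive colonocytes, goblet cells, enteroendocrine cells and tuft cells.

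Total counts ranged from 27663690 to 43815431 per library in KO D80 colon and from 33795948 to 34288788 in KO tumors. Values are CPM (counts scaled to library size) with TMM factors, and genes were called differentially expressed (DEGs) by edgeR's quasi-likelihood test where the adjusted p was below 0.05 and the change exceeded 2-fold. Values by which a gene rose or fell are log2 fold changes with their standard error (SE), and list medians are medians of the log2 fold change over the list's tested genes. The library of tumor 544 stood apart: 7.93% of its counts came from mitochondrially encoded mRNAs and 12.0% from ribosomal protein mRNAs, against 3.29 to 3.31% and 6.25 to 6.40% in the other 2 tumors. Each library's deviation from the mean of its group's other libraries was also correlated with exon length across expressed genes. Spearman's rho was -0.41 for tumor 544 and 0.32 and 0.41 for the other 2 tumors, so tumor 544 was shifted toward short transcripts. The part of this shift in the values below was not tested. The colon of mouse 535, the mouse with no tumor library here, also lay apart from the other 3 colons. It was the lowest of the 4 colons for 57.1% of the genes that rose in tumors, beside 28.7% of all genes tested, and the highest for 74.7% of the genes that fell, beside 37.0%. Calls that ended when 1 of the 7 libraries was left out are named below with their values.

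Of 19457 genes tested, 2006 (10.3%) rose and 3189 (16.4%) fell in KO tumors, 5195 (26.7%) in all, with a median log2 fold change of 0.01 over all genes. The shares of 10.3% and 16.4% are the background for each list's count of genes that rose or fell. Beyond 4-fold, 1485 DEGs fell and 399 rose. With the mouse as a replicate block, in which only the 3 mice with both samples inform the difference, 1160 (5.96%) rose and 2767 (14.2%) fell. The number that rose was 1324 without colon 535 and 1357 without tumor 544, and the number that fell was 2605 and 3250. Of the genes tested, 32.5% were higher in the tumor in all 3 mice that gave both samples, and 35.8% were lower in all 3, together 68.3%. In bulk tissue, fewer cells of a type and less RNA per cell cannot be told apart, and this holds for each list below.

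*Dnase1l3* itself was at 3.33, 3.27, 4.14 and 12.1 CPM in the D80 colons of mice 527, 535, 543 and 544, and at 3.56, 3.95 and 9.08 CPM in the tumors of mice 527, 543 and 544. The groups overlapped, mouse 544 was highest in both, and the log2 fold change was -0.03 (SE 0.56). WT D80 colon had 3.35 to 9.39 CPM and WT tumors 2.05 to 10.3 CPM, so the gene's total count did not separate the genotypes. The study itself reported strongly lowered *Dnase1l3* expression along the intestine of this strain. It also reported that serum of these mice digested DNA and chromatin poorly. The deposited counts are sums per gene, and reads from the deleted stretch could not be viewed apart.

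The largest increases were in genes of stratified squamous epithelium, the HoxD cluster and a neutrophil-attracting chemokine. *Krt5*, a keratin of basal squamous cells, was at 0.480, 0.318, 0.197 and 0.282 CPM in the 4 colons and 142, 97.8 and 115 CPM in the 3 tumors, a log2 fold change of 8.52 (SE 0.29) with an adjusted p of 1.89e-05. *Tmprss11g*, a serine protease of squamous epithelia, had 3 counts over the 4 colons and 13.1, 12.9 and 17.7 CPM in the tumors, a ratio of 674 with an exact 95% counting interval from 230.3 to 3274. Its relative *Tmprss11b* rose by 6.77 log2 units (SE 0.83) and *Tmprss11d* by 6.56 (SE 0.31). *Krt6a* and *Krt6b*, keratins of activated keratinocytes whose near-identical sequences share reads, rose by 6.20 log2 units (SE 0.62) and 6.14 (SE 0.56), *Krt15* by 5.58 (SE 0.48), and the cornified envelope gene *Sprr2d* by 6.47 (SE 0.37). *Psca*, a GPI-anchored antigen of stomach and urothelium, was at 0.0657 to 0.367 CPM in the colons and 30.8 to 57.9 CPM in the tumors (log2 fold change 7.53, SE 0.44).

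Outside the squamous genes, *Ppbp*, a CXC chemokine best known from platelets, rose from 0.250 to 0.734 CPM in the colons to 91.6 to 151 CPM in the tumors, a log2 fold change of 7.82 (SE 0.38). *Ltf*, which encodes the iron-binding antimicrobial protein lactoferrin, was at 18.4, 4.09, 10.7 and 9.49 CPM in the colons and 443, 314 and 524 CPM in the tumors (log2 fold change 5.34, SE 0.50). *Hoxd12*, *Hoxd11* and *Hoxd13* rose by 6.57 (SE 0.42), 5.31 (SE 0.38) and 5.11 (SE 0.50) on the log2 scale, and *Mettl7a3*, a predicted methyltransferase gene, by 5.14 (SE 0.46). For all 15 of these genes every tumor was above every colon, which the naming rule required.

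The largest decreases were in genes of differentiated epithelium and enteric nerve. *Aqp8*, the water channel of surface colonocytes, was at 247, 559, 219 and 252 CPM in the 4 colons and 11.1, 4.18 and 5.23 CPM in the tumors (log2 fold change -5.53, SE 0.54). *Cyp2c55*, a cytochrome P450 of colonocytes, fell with 49.9 to 348 CPM in the colons against 1.53 to 2.27 CPM in the tumors (log2 fold change -6.33, SE 0.77), with colon 535 at the top of the range. *Fabp2* (intestinal fatty acid binding protein), *Hsd3b3* (a steroid dehydrogenase), *Slc3a1* (part of a dibasic amino acid transporter) and the lipid transporter gene *Abca12* had log2 fold changes of -5.83 (SE 0.55), -5.53 (SE 0.53), -5.64 (SE 0.59) and -7.09 (SE 0.60). *Mptx1*, a mucosal pentraxin, was at 287, 1956, 966 and 150.4 CPM in the colons and 16, 8.29 and 12.8 CPM in the tumors (log2 fold change -6.06, SE 1.0), so the colons alone spanned more than 10-fold. *Vip*, a neuropeptide of enteric neurons, fell with 12.4 to 33.6 CPM in the colons against 0.0815 to 0.288 CPM in the tumors (log2 fold change -6.89, SE 0.54). *Rims1*, a presynaptic gene, fell by 6.37 log2 units (SE 0.41) and *Kcnd3*, a potassium channel gene, by 5.64 (SE 0.40). The remaining large decreases were *Apol10a* (log2 fold change -7.37, SE 0.40), *Abca8a* (log2 fold change -7.32, SE 0.58), *Ctxn3* (log2 fold change -6.94, SE 0.46), *Wscd2* (log2 fold change -5.88, SE 0.55) and the nonclassical MHC gene *H2-T3* (log2 fold change -6.66, SE 0.64).

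**Figure D1:**
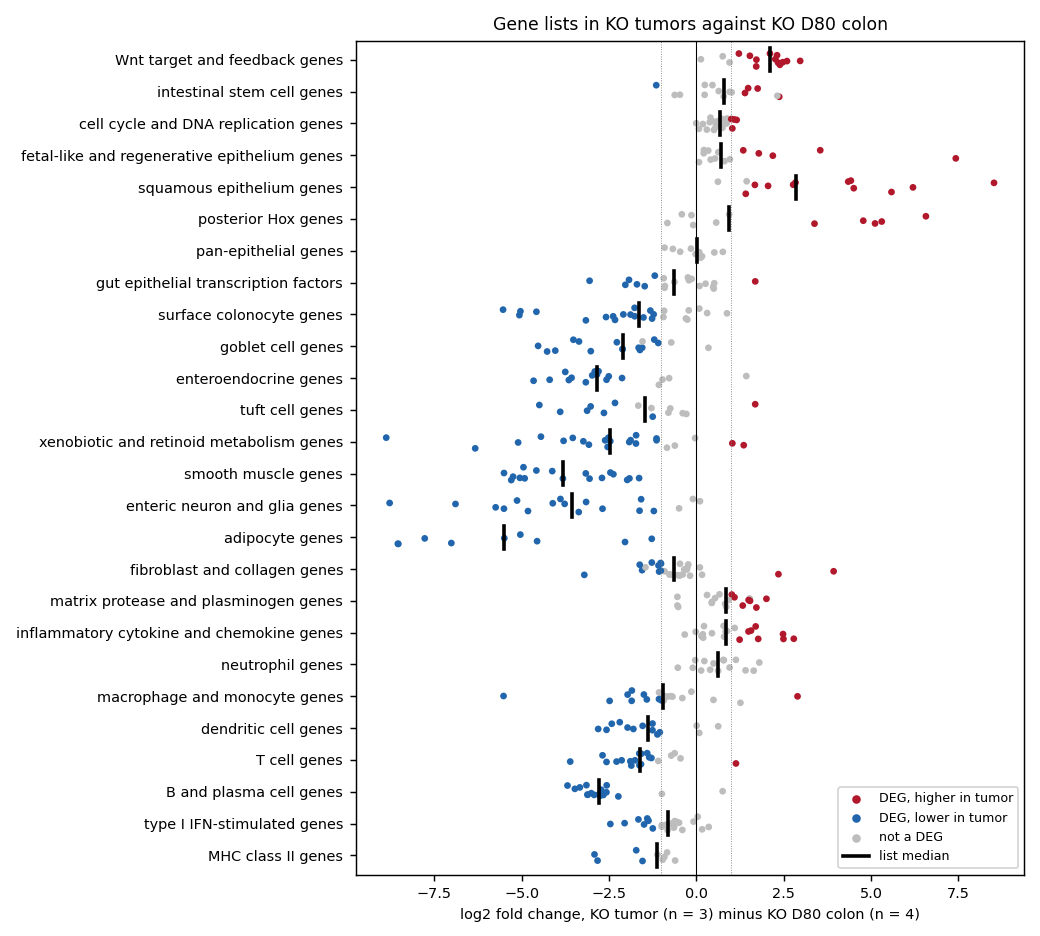
Log2 fold change of each tested member of 26 gene lists, KO tumor (n = 3) minus KO D80 colon (n = 4), 1 point per gene, with DEGs higher in tumor in red, DEGs lower in tumor in blue, other genes in grey and list medians as black bars. Wnt target and squamous epithelium genes lie to the right with medians of 2.11 and 2.84, pan-epithelial genes sit around 0.03, and smooth muscle, enteric neuron and adipocyte genes lie farthest to the left; points for genes without a count in the tumors depend on the prior count of the fit.

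Wnt targets rose as a group. Of 15 tested target and feedback genes, 12 rose, with a list median of 2.11 on the log2 scale, and 14 had all tumors above all colons, beside 25.7% of all genes tested. *Axin2*, a scaffold of the β-catenin destruction complex and a standard readout of the pathway, was at 61.1, 24.8, 50.5 and 61.5 CPM in the colons and 178, 192 and 117 CPM in the tumors (log2 fold change 1.72, SE 0.32). *Notum*, a secreted enzyme that removes the lipid from Wnt ligands, was at 27.1, 2.70, 31.8 and 24.4 CPM in the colons and 107, 127 and 103 CPM in the tumors (log2 fold change 2.39, SE 0.64). Each tumor exceeded each colon for both genes, and colon 535 was far below the other 3 colons.

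Further feedback inhibitors moved the same way. *Nkd1* rose by 2.11 log2 units (SE 0.50), *Apcdd1* by 2.97 (SE 0.48), *Wif1* by 2.31 (SE 0.73), *Dkk2* by 2.34 (SE 0.48) and *Rnf43*, a ubiquitin ligase that removes Wnt receptors, by 1.22 (SE 0.27). *Wif1*, which binds Wnt ligands, spanned 174 to 566 CPM among the tumors and 8.97 to 110.1 CPM among the colons. Among transcription factors, *Sp5* rose by 2.59 log2 units (SE 0.58), *Lef1* by 2.26 (SE 0.46), *Tcf7* by 1.71 (SE 0.22) and *Prox1* by 1.53 (SE 0.54), and *Bambi*, a decoy receptor of the TGF-β family, rose by 2.47 (SE 0.26). *Myc* (log2 fold change 0.75, SE 0.22, adjusted p = 0.0263) and *Znrf3* (log2 fold change 0.95, SE 0.24, adjusted p = 0.0141) were below the 2-fold threshold, and *Ccnd1*, the gene of cyclin D1, was at 72.7 to 129 CPM in the colons and 91.4 to 150.1 CPM in the tumors (log2 fold change 0.13, SE 0.24, adjusted p = 0.678). Without colon 535 the list median was 1.79, with 12 genes called, and with the mouse as a block it was 1.78, with 12 called. *Wif1* was not called without colon 527 or 543 or without tumor 544, at log2 fold changes of 1.80 to 2.40. *Prox1* was not called without colon 527, 543 or 544 or without tumor 527, 543 or 544, at log2 fold changes of 1.40 to 1.69.

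Promoter windows of the called Wnt targets were searched for the TCF/LEF letters CTTTGAA as well as CTTTGAT, and for CTTTGTA as well as CTTTGTT, on both strands, since these factors bind such sites. RefSeq windows of 300 bases (GRCm38.p6), from 250 bases before to 50 after a transcription start, matched 9 of the 12 genes, and 2 of those held a match. Of all genes tested with a window, 14.8% held one, so the count is too small for a comparison. The *Sp5* window (chr2:70474673-70474972, plus strand) lies at the annotated start of the gene. The *Lef1* window (chr3:131156044-131156343, plus strand) belongs to an alternative RefSeq start inside the gene, whose annotated start is at position 131110471, and the other *Lef1* windows held no match. Both are printed with the matches in capitals, as the 2 windows among the called Wnt targets that held one. A match is a string of letters and not a measured binding site.
*Sp5*: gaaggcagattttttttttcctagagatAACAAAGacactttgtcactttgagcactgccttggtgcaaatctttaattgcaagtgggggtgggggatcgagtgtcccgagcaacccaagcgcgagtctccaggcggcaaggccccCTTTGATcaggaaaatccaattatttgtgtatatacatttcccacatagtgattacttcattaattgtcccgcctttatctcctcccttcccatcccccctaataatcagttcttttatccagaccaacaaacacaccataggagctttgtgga
*Lef1*: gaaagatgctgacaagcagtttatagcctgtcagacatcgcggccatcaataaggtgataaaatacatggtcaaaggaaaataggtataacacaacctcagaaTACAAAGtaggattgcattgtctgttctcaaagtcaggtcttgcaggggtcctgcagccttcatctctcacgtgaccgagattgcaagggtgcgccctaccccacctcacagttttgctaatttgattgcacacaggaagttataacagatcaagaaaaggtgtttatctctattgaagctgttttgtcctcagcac

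Stem cell genes did not move as 1 group. Of 15 tested, 4 rose and 1 fell, with a median of 0.78. *Ascl2*, a transcription factor of crypt base stem cells, rose with 4.18 to 9.76 CPM in the colons against 31.3 to 39.5 CPM in the tumors (log2 fold change 2.37, SE 0.28), and *Mex3a*, *Tnfrsf19* and *Smoc2* rose by 1.76 (SE 0.46), 1.48 (SE 0.44) and 1.39 (SE 0.36). *Lgr5*, the R-spondin receptor that marks these cells, was at 35.9, 9.28, 31.3 and 35.3 CPM in the colons and 48.9, 49.5 and 69.1 CPM in the tumors. All 3 tumors were above all 4 colons, but the log2 fold change of 1.01 (SE 0.42) had an adjusted p of 0.0766. *Prom1* fell by 1.15 (SE 0.19) on the log2 scale, with 439 to 467 CPM in the colons against 151 to 234 CPM in the tumors, the direction opposite to the other 4 calls. Without tumor 544, *Smoc2* and *Prom1* were not called, at log2 fold changes of 0.93 and -0.95. *Tnfrsf19* was not called without colon 543 or without tumor 544, at log2 fold changes of 1.31 to 1.47.

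Members that were not called included the crypt genes *Sox9*, *Cdca7*, *Ephb3*, *Ephb2*, *Cd44* and *Slc12a2*, with log2 fold changes of 0.64, 0.95, 0.78, 0.24, 0.46 and 0.24. *Lrig1*, a brake on EGF receptor signaling, and *Rgmb*, a BMP co-receptor, had log2 fold changes of -0.62 and -0.47. *Olfm4*, a marker of human colonic stem cells that mouse colon hardly expresses, was at 0.625, 0.288 and 5.99 CPM in the tumors and 0.157 to 0.885 CPM in the colons, and its log2 fold change of 2.32 (SE 1.0) became 0.00 without tumor 544.

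Wnt ligands and modulators were called in both directions. *Wnt10a* and *Wnt6*, ligands of epithelia, rose by 3.68 log2 units (SE 0.77) and 2.51 (SE 0.67). *Wnt10a* was at 1.81, 0.272, 3.58 and 6.33 CPM in the colons and 25.9, 36.4 and 50.8 CPM in the tumors, and colon 535 again had the lowest value. The stromal niche genes fell: *Wnt2b* by 3.03 (SE 0.25), the R-spondin gene *Rspo3* by 2.91 (SE 0.29), and the Wnt-binding antagonists *Sfrp1*, *Sfrp4* and *Frzb* by 3.25 (SE 0.21), 4.12 (SE 0.43) and 1.44 (SE 0.25) on the log2 scale. *Sfrp1* was at 132, 144, 109 and 128 CPM in the colons and 10.2, 16.1 and 13.6 CPM in the tumors. Of the 19 ligands and modulators tested, 2 rose and 7 fell, with a median of 0.04, or -0.03 without composition factors.

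**Figure D2:**
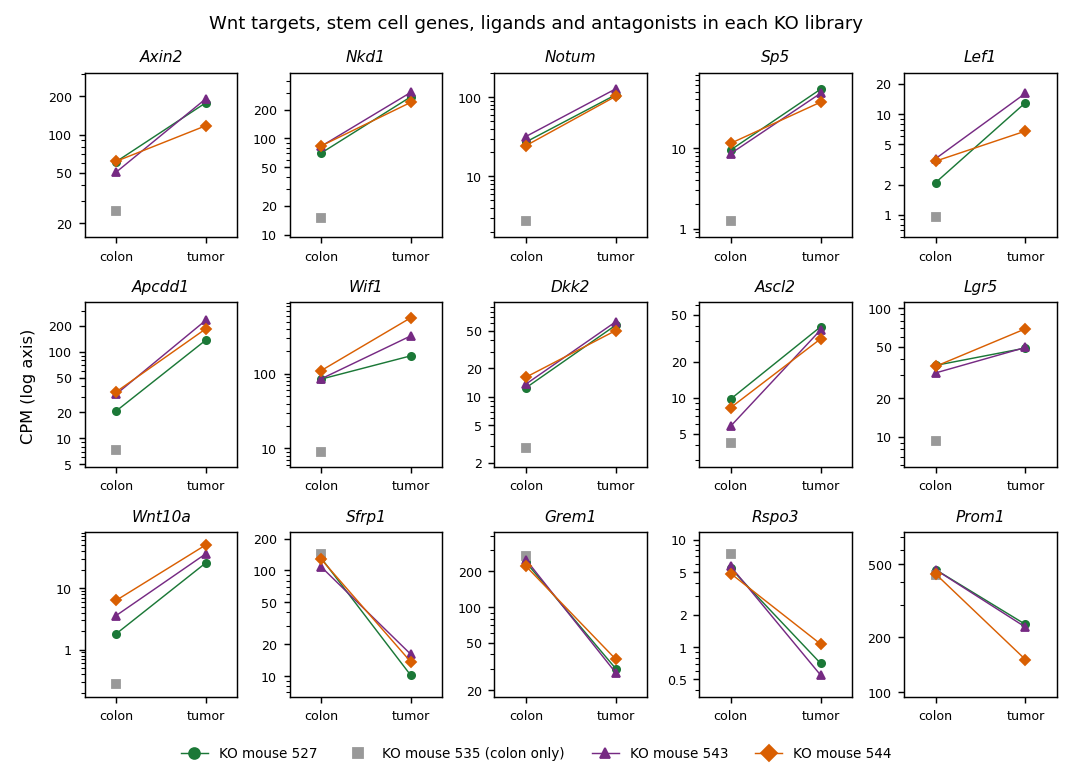
CPM on log axes of 15 Wnt pathway, stem cell and BMP antagonist genes in each KO library, with lines joining the D80 colon and the tumor of the same mouse and grey squares for the colon of mouse 535. The Wnt targets, *Ascl2*, *Lgr5* and *Wnt10a* were higher in the tumor in each of the 3 mice and lowest in colon 535, while *Sfrp1*, *Grem1* and *Rspo3* fell in each mouse from colons that lay close together.

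The BMP antagonists of the stroma fell together with these niche genes. *Grem1* was at 239, 267, 252 and 222 CPM in the colons and 30.4, 28 and 36.4 CPM in the tumors (log2 fold change -2.94, SE 0.18), and *Chrdl1* fell by 5.20 (SE 0.41). Of 23 BMP and TGF-β genes, 5 fell and 4 rose, beside 16.4% and 10.3% of all genes tested. The median was -0.15, and 2 rose with the mouse as a block. *Id3* and *Id1*, direct targets of BMP signaling, rose by 1.57 log2 units (SE 0.18) and 1.12 (SE 0.20) and were called in both fits. *Bmp3* and *Bmp5* fell by 3.13 log2 units (SE 0.30) and 1.44 (SE 0.18), and *Bmp7* and *Inhba* rose by 1.18 (SE 0.33) and 1.09 (SE 0.34) but not with the block. Without colon 535, *Bmp7* was not called, at a log2 fold change of 0.95. *Inhba* was not called without colon 535, 543 or 544 or without tumor 527, at log2 fold changes of 0.88 to 1.11.

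Most proliferation genes stayed under the 2-fold threshold. Of 24 cell cycle and replication genes, 18 had all tumors above all colons, beside 25.7% of all genes tested. Past the 2-fold threshold 4 rose, beside 10.3% of all genes, with a median of 0.68. *E2f1*, *Birc5* and *Rrm2* rose by 1.15 (SE 0.16), 1.08 (SE 0.17) and 1.0 (SE 0.22), while *Aurkb*, *Pcna* and *Ccnb2* had log2 fold changes of 0.85, 0.87 and 0.75. With the mouse as a block 1 gene, *E2f1*, was called, without tumor 544 2 were, and without colon 535 2 were. Among 19 nucleolar and polyamine genes that Myc activates, *Fbl* rose by 1.02 log2 units (SE 0.16), not with the block, and the median was 0.41. Without tumor 544, *Birc5* was not called, at a log2 fold change of 1.0. *Rrm2* was not called without colon 535 or 544 or without tumor 527 or 544, at log2 fold changes of 0.87 to 0.98. *Fbl* was not called without colon 535 or without tumor 527, at log2 fold changes of 0.89 to 0.94.

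Of the 17 EGF receptor ligand and ERK feedback genes, *Egf* fell by 2.81 (SE 0.44) on the log2 scale, and *Phlda1* and *Dusp4* rose by 1.52 (SE 0.29) and 1.10 (SE 0.28), *Dusp4* not with the block. Without colon 535, *Dusp4* was not called, at a log2 fold change of 0.90. *Etv4*, an ERK-induced transcription factor gene, had a log2 fold change of 0.79 (SE 0.16). Among 14 Notch genes, 2 rose, beside 10.3% of all genes tested, and the median was 0.13. *Hes6*, an antagonist of Hes1, was the clearest, at 99.0, 70.5, 84.4 and 106 CPM in the colons and 294, 295 and 288 CPM in the tumors (log2 fold change 1.71, SE 0.18). *Hes1*, the main Notch target of the crypt, had a log2 fold change of 0.75 (SE 0.18), and the ligand genes *Dll1* and *Jag1* had -0.84 and -0.58. *Cdkn2a*, the locus of p16 and p19ARF, rose by 1.42 log2 units (SE 0.31), the only call among 12 p53 and cell cycle arrest genes, whose median was -0.05.

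General epithelial markers were checked as a measure of the tissue itself. Of 10 pan-epithelial genes 0 were DEGs by edgeR and 0 by DESeq2, 5 had an unadjusted p under 0.05, in both directions, and the median log2 fold change was 0.03, or -0.02 without composition factors. *Krt18* had a log2 fold change of 0.76 (SE 0.16), the intestinal cadherin gene *Cdh17* -0.67 (SE 0.17) and the galectin gene *Lgals4* -0.15 (SE 0.20).

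The transcription factors of intestinal identity did not fall alike. *Cdx2*, the homeobox factor that specifies intestinal epithelium, was at 72.0, 112, 94.7 and 92.6 CPM in the colons and 16.9, 12.7 and 3.82 CPM in the tumors, and fell by 3.05 (SE 0.45) on the log2 scale, with an adjusted p of 0.00170. All tumors were below all colons, with tumor 544 lowest. Its paralog *Cdx1* was at 149, 156, 147 and 159 CPM in the colons and 174, 126 and 86.2 CPM in the tumors, groups that overlapped (log2 fold change -0.24, SE 0.22, adjusted p = 0.392). *Hnf4g* fell by 2.03 (SE 0.16) and its paralog *Hnf4a* had a log2 fold change of -0.93 (SE 0.30) with an adjusted p of 0.0332. *Vdr* (the vitamin D receptor), *Nr3c2* (the mineralocorticoid receptor) and *Klf4* fell by 1.93 log2 units (SE 0.40), 1.70 (SE 0.31) and 1.48 (SE 0.34). *Foxq1* was the exception and rose by 1.69 log2 units (SE 0.31). In all, 6 of 19 factors fell, with a median of -0.63.

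Surface colonocyte genes fell with *Cdx2*. Of 24 tested, 16 fell, with a median of -1.64. *Slc26a3*, the apical chloride-bicarbonate exchanger, was at 184, 436, 279 and 257 CPM in the colons and 15.1, 7.29 and 3.40 CPM in the tumors (log2 fold change -5.06, SE 0.57). *Car4*, a membrane carbonic anhydrase, fell with 349 to 515 CPM in the colons against 5.50 to 19.9 CPM in the tumors (log2 fold change -5.03, SE 0.45), and *Tmigd1*, *Slc9a2* (a sodium-proton exchanger) and *Slc37a2* fell by 4.58 (SE 0.39), 2.33 (SE 0.24) and 2.09 (SE 0.22).

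The windows of the called colonocyte genes and of the called posterior Hox genes were searched for the letters TTTATGG as well as TTTATTG, and for TTTACGA, strings that CDX factors bind, on both strands. A match was in 2 of 12 colonocyte genes with a window and in 1 of 5 posterior Hox genes, beside 6.18% of all genes tested. These counts are too small for a comparison, and a match is not a measured binding site. The windows of *Aqp8* (chr7:123462044-123462343, plus strand) and *Hoxd11* (chr2:74679308-74679607, plus strand) are printed with the match in capitals, as 1 example per list. The other colonocyte match, in *Ceacam20*, is not printed, and the *Hoxd11* match begins at base 9 after the start. Whether CDX factors act on these genes was not tested.
*Aqp8*: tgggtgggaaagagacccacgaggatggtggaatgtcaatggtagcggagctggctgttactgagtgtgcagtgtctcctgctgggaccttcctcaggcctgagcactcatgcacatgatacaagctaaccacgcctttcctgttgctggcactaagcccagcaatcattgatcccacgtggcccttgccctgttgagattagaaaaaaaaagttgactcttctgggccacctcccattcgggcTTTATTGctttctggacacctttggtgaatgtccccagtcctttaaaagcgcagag
*Hoxd11*: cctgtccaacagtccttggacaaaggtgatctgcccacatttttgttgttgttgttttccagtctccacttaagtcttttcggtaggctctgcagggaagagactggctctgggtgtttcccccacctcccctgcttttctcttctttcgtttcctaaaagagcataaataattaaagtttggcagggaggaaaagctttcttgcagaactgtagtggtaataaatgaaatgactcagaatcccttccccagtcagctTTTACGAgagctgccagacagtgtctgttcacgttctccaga

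Secretory lineages were lower as well. Of 17 goblet cell genes 14 fell, with a median of -2.11. *Muc2*, the gel-forming mucin of the colon, was at 2954, 6041, 3315 and 3245 CPM in the colons and 874, 998 and 523 CPM in the tumors (log2 fold change -2.27, SE 0.36). *Atoh1*, which commits progenitors to the secretory fate, fell by 2.11 log2 units (SE 0.25), *Spdef* by 2.11 (SE 0.22) and *Creb3l1* by 1.61 (SE 0.18). *Zg16*, *Klk1* and *Fer1l6* fell by 3.52 (SE 0.51), 3.36 (SE 0.38) and 4.04 (SE 0.53). Of 17 enteroendocrine genes 13 fell, with a median of -2.84. *Cpe*, a prohormone processing enzyme, was at 58.4, 68.2, 63.0 and 56.4 CPM in the colons and 8.47, 7.95 and 7.98 CPM in the tumors (log2 fold change -2.91, SE 0.13), a change with little spread in either group. The hormone genes *Gcg*, *Insl5* and *Sst* fell by 4.66 (SE 0.42), 3.57 (SE 0.37) and 3.75 (SE 0.37) on the log2 scale.

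Of 14 tuft cell genes, 7 fell and 1 rose, with a median of -1.47. *Dclk1*, the channel gene *Trpm5* and the lineage factor *Pou2f3* had log2 fold changes of -2.64 (SE 0.31), -3.02 (SE 0.45) and -3.13 (SE 0.50). *Avil*, an actin-binding protein that sensory neurons also make, rose instead, with 10.3 to 22.6 CPM in the colons against 28.5 to 78.1 CPM in the tumors (log2 fold change 1.69, SE 0.36). Among Paneth and small intestinal genes, 6 of 12 fell, including *Alpi* (log2 fold change -4.56, SE 0.48) and *Apob* (log2 fold change -3.66, SE 0.95). The list median was -2.11 over these 12 genes, and -0.53 over the 11 genes tested without colon 535. Among the colons, colon 535 had the highest levels of *Mptx1* and *Fabp2*. *Itln1*, a lectin of goblet and Paneth cells, rose by 1.59 log2 units (SE 0.43). Without colon 543, *Itln1* was not called, at a log2 fold change of 1.51.

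**Figure D3:**
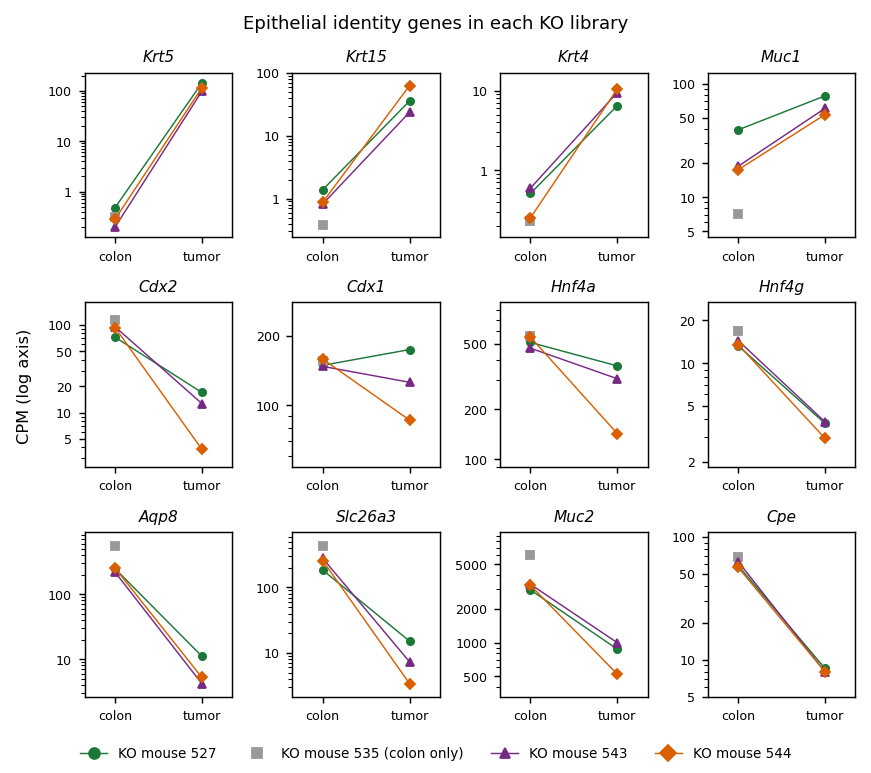
CPM on log axes of 12 epithelial identity genes in each KO library, with lines joining the D80 colon and the tumor of the same mouse and grey squares for the colon of mouse 535. The squamous keratins and *Muc1* rose and *Cdx2*, *Aqp8*, *Slc26a3*, *Muc2* and *Cpe* fell in each mouse, while the lines of *Cdx1* diverged, with tumor 544 lowest.

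Members of the antimicrobial and oxidase list went in both directions. *Wfdc2*, *S100g*, *Lcn2* and *Saa3* rose by 1.96 log2 units (SE 0.24), 1.80 (SE 0.38), 1.54 (SE 0.36) and 1.53 (SE 0.43), while *Pigr*, the transporter of IgA into the lumen, and *Dmbt1*, a mucosal scavenger protein, fell by 1.92 (SE 0.34) and 1.73 (SE 0.52). *Saa3* was at 128, 143 and 448 CPM in the tumors, highest in tumor 544, and was not called with the block. Among membrane mucins, *Muc4*, *Muc3* and *Muc3a* fell by 2.91 log2 units (SE 0.34), 2.03 (SE 0.60) and 1.46 (SE 0.31), *Muc3* and *Muc3a* being close copies that can share reads. *Muc1* rose by 1.65 log2 units (SE 0.47) and *Muc16* by 1.69 (SE 0.53), the latter not with the block. *Muc3* was not called without colon 535 or 543, at log2 fold changes of -2.03 to -1.87. *Saa3* was not called without colon 527, 535, 543 or 544 or without tumor 544, at log2 fold changes of 0.70 to 1.58. *Dmbt1* was not called without colon 527, 543 or 544 or without tumor 543, at log2 fold changes of -1.80 to -1.55. *Muc1* was not called without colon 543 or 544 or without tumor 527, at log2 fold changes of 1.5 to 1.6. *Muc16* was not called without colon 527, 535 or 543 or without tumor 527 or 543, at log2 fold changes of 1.45 to 1.58. Of 13 tight junction genes, *Cldn15* fell by 3.15 log2 units (SE 0.24) and *Cldn4* rose by 1.75 (SE 0.31), with 96.7 to 258 CPM in the colons against 534 to 622 CPM in the tumors.

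Squamous epithelium genes rose, 11 of 13 tested, with a median of 2.84. Besides the keratins above, *Krt4*, *Krt17* and the cornified envelope gene *Lor* rose by 4.51 log2 units (SE 0.37), 2.05 (SE 0.25) and 2.84 (SE 0.36). *Trp63*, which encodes the basal cell factor p63, is not in this list and is counted with the fetal-like and regenerative genes below. It had 3 counts over the 4 colons and 5.13, 3.19 and 4.24 CPM in the tumors. The ratio was 197 with an exact 95% counting interval from 67.0 to 959. The basement membrane genes of squamous basal cells, *Col17a1* and *Col7a1*, rose by 3.93 log2 units (SE 0.36) and 2.35 (SE 0.49) and were the 2 calls above colon in the fibroblast and collagen list.

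Of the 14 fetal-like and regenerative genes 5 rose, including *Trp63* above, and the median was 0.72. *Msln*, *Tnfrsf12a* and *Anxa1* rose by 2.19 log2 units (SE 0.36), 1.79 (SE 0.34) and 1.34 (SE 0.25).

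The Hox genes that rose most were those of the posterior HoxD cluster. *Hoxd9*, *Hoxd10*, *Hoxd11*, *Hoxd12* and *Hoxd13* were the 5 DEGs among 11 posterior Hox genes tested. *Hoxd13*, a gene of the hindgut end and genital tract, was at 7.0, 1.97, 3.42 and 1.57 CPM in the colons and 122, 126 and 112 CPM in the tumors (log2 fold change 5.11, SE 0.50). *Hoxd9* and *Hoxd10* rose by 3.38 (SE 0.29) and 4.78 (SE 0.36), and their neighbor *Hoxd8* had a log2 fold change of 0.93 (SE 0.32), below the 2-fold threshold. *Hoxb13* was at 70.3 to 126 CPM in the colons and 144 to 209.6 CPM in the tumors (log2 fold change 0.94, SE 0.22). In the anterior groups, *Hoxb7* and *Hoxb6* rose by 1.71 log2 units (SE 0.28) and 1.26 (SE 0.43), and *Hoxa6* and *Hoxa2* fell by 1.40 (SE 0.34) and 1.09 (SE 0.39), the latter 2 not with the block. *Hoxb6* was not called without colon 527, 535 or 544 or without tumor 543, at log2 fold changes of 0.92 to 1.39. *Hoxa2* was not called without colon 535, 543 or 544 or without tumor 543 or 544, at log2 fold changes of -1.19 to -0.81. The part that the sampled colon segment has in the Hox and squamous values was not tested, and segment and tissue cannot be told apart here.

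**Figure D4:**
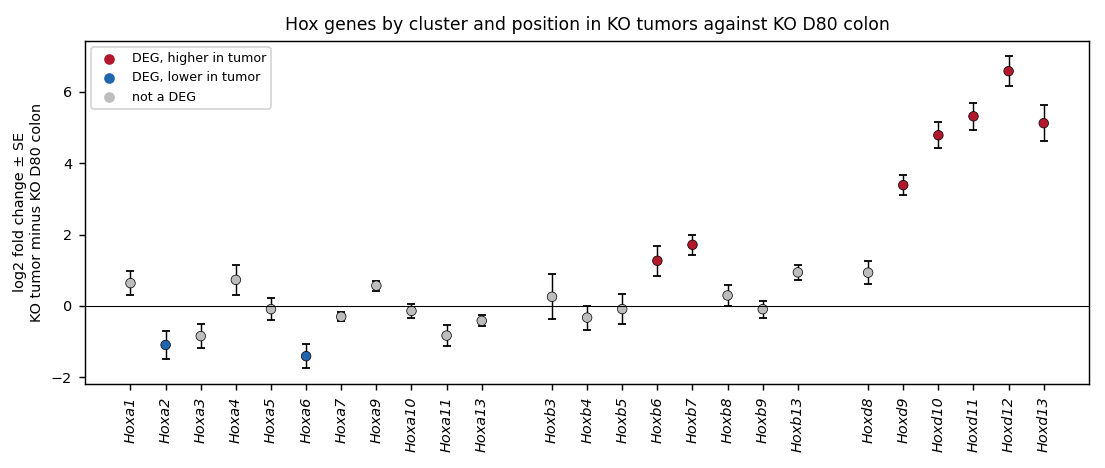
Log2 fold change ± SE of each tested Hox gene, KO tumor (n = 3) minus KO D80 colon (n = 4), ordered by cluster and position, with DEGs in red or blue. *Hoxd9* to *Hoxd13* lie between 3.38 and 6.57, whereas the tested HoxA and HoxB genes lie between -1.40 and 1.71.

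All 17 smooth muscle genes fell, with a median of -3.82, and in each of them all tumors were below all colons, beside 29.4% of all genes tested. *Myh11*, the smooth muscle myosin, was at 515, 859, 795 and 617 CPM in the colons and 14.9, 27.5 and 10.6 CPM in the tumors (log2 fold change -5.30, SE 0.42), and *Des* fell with 407 to 725 CPM in the colons against 11.4 to 23.9 CPM in the tumors (log2 fold change -4.95, SE 0.38). *Pgm5*, *Synm*, *Synpo2* and the muscarinic receptor gene *Chrm2* fell by 5.05 log2 units (SE 0.24), 5.24 (SE 0.31), 4.58 (SE 0.27) and 5.50 (SE 0.35). Of 18 enteric neuron and glia genes, 15 fell, with a median of -3.57. *Prph*, *Nos1*, *Hand2* and the glial factor *Sox10* fell by 5.50 log2 units (SE 0.43), 4.82 (SE 0.39), 5.13 (SE 0.56) and 4.11 (SE 0.35).

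Fat transcripts were low in colon and lower in tumor, and skeletal muscle genes fell only in part. All 9 tested adipocyte genes fell, with a median of -5.49, or -4.73 with genes at 0 in the tumors set to their bound. *Plin4* fell by 5.04 log2 units (SE 0.32), *Car3* by 4.56 (SE 0.79) and *Fabp4* by 1.28 (SE 0.25), and *Adipoq* was without a count in the tumors, at least 45-fold lower by the floor of 3 counts over the group. The skeletal muscle gene *Ckm* was at 3.02 to 5.17 CPM in the colons and 0.0523 to 0.114 CPM in the tumors (log2 fold change -5.80, SE 0.41). The labels separate whole colon from tumor only, so the dissected layers and the disease state cannot be told apart for these lists.

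The fibroblast and collagen list had a smaller median, -0.63: of 26 genes, 9 fell and 2 rose. *Lum*, a small proteoglycan, fell by 3.21 log2 units (SE 0.26), *Vcan* by 1.62 (SE 0.19), *Postn* by 1.55 (SE 0.20), and *Col6a1* and *Col6a2* by 1.27 (SE 0.19) and 1.08 (SE 0.19). Of 19 matrix protease and plasminogen genes 7 rose, with a median of 0.86. *Mmp9*, a gelatinase, rose by 1.33 log2 units (SE 0.28), *Timp1* by 1.09 (SE 0.24) and *Mmp14* by 1.01 (SE 0.21), which the block did not call. Without tumor 544, *Timp1* was not called, at a log2 fold change of 0.78. *Col6a2* was not called without tumor 527 or 544, at log2 fold changes of -0.98 to -0.94. *Mmp14* was not called without colon 535 or without tumor 527 or 543, at log2 fold changes of 0.88 to 0.98. *Plau* had a log2 fold change of 0.82 (SE 0.22) and *Mmp11* one of 0.86 (SE 0.16).

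Of 16 endothelial and angiogenic genes 4 rose and 5 fell, with a median of -0.25. *Kdr*, *Tek* and *Vwf* fell by 1.21 log2 units (SE 0.12), 1.63 (SE 0.20) and 1.32 (SE 0.19), while *Apln*, *Angpt2*, *Pgf* and *Esm1* rose by 2.31 (SE 0.26), 1.71 (SE 0.21), 1.70 (SE 0.25) and 1.04 (SE 0.30), *Esm1* not with the block. *Esm1* was not called without colon 527 or 535 or without tumor 544, at log2 fold changes of 0.88 to 0.92. *Kdr* had a narrow spread, 24.8 to 26.9 CPM in the colons and 10.5 to 11.4 CPM in the tumors. *Apln*, a peptide of endothelial tip cells, was at 2.77, 1.59, 1.71 and 1.6 CPM in the colons and 10.5, 7.35 and 10.3 CPM in the tumors.

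Of 20 T cell genes 15 fell, with a median of -1.61. *Cd4* was at 15.2, 23.2, 11.4 and 16.8 CPM in the colons and 2.47, 2.85 and 2.37 CPM in the tumors (log2 fold change -2.68, SE 0.25), and the costimulatory receptor gene *Cd28* fell by 3.61 (SE 0.33). *Icos*, *Il7r* and *Cd2* fell by 2.28 log2 units (SE 0.25), 1.86 (SE 0.20) and 1.58 (SE 0.23), and *Foxp3*, the factor of regulatory T cells, by 1.75 (SE 0.26). *Zap70*, a kinase of the T cell receptor, rose by 1.13 log2 units (SE 0.23), with 2.68 to 4.45 CPM in the colons against 5.84 to 8.60 CPM in the tumors, alone among these genes. Of 13 cytotoxic lymphocyte genes 7 fell, with a median of -1.51, among them *Prf1* (log2 fold change -3.05, SE 0.51), *Tbx21* (log2 fold change -2.26, SE 0.47) and *Nkg7* (log2 fold change -1.85, SE 0.52). *Nkg7* was not called without colon 535 or without tumor 527, at log2 fold changes of -1.74 to -1.58.

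B and plasma cell genes fell in 15 of 17 cases, with a median of -2.79. *Cd79b*, part of the B cell receptor, was at 18.7, 29.3, 9.40 and 12.7 CPM in the colons and 4.26, 1.88 and 2.06 CPM in the tumors (log2 fold change -2.66, SE 0.46). *Jchain*, which joins secreted IgA, fell with 892 to 2226 CPM in the colons against 141 to 404 CPM in the tumors (log2 fold change -2.72, SE 0.45), with colon 543 the lowest colon, and *Pou2af1*, *Mzb1*, *Derl3* and *Tnfrsf17* fell by 2.79 (SE 0.46), 2.75 (SE 0.46), 2.23 (SE 0.36) and 3.01 (SE 0.51). Dendritic cell genes fell in 11 of 14 cases, with a median of -1.39. *Irf8*, a lineage factor of type 1 and plasmacytoid dendritic cells, was at 79.4, 84.0, 77.0 and 77.3 CPM in the colons and 36.4, 30.8 and 31.8 CPM in the tumors (log2 fold change -1.25, SE 0.12). *Flt3*, *Cd83*, *Ccr7*, *Itgax* and *Siglech* fell by 2.42 log2 units (SE 0.36), 1.97 (SE 0.29), 1.80 (SE 0.33), 1.11 (SE 0.19) and 2.57 (SE 0.45). Without tumor 527, *Itgax* was not called, at a log2 fold change of -0.97.

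Of 21 macrophage and monocyte genes, 9 fell, 1 rose and 11 were not called, with a median of -0.96, and 14 fell without composition factors. *Cd163*, a scavenger receptor of resident macrophages, was at 1.24, 2.11, 3.06 and 1.5 CPM in the colons and 0.0272, 0.0523 and 0.0382 CPM in the tumors (log2 fold change -5.52, SE 0.54). *Csf1r*, *Adgre1*, *Mertk* and *Cx3cr1* fell by 1.5 log2 units (SE 0.17), 1.85 (SE 0.32), 2.48 (SE 0.34) and 1.42 (SE 0.21). *Arg1*, which encodes arginase 1, was at 34.3, 5.45, 29.8 and 12.9 CPM in the colons and 132, 178 and 147 CPM in the tumors and rose by 2.90 log2 units (SE 0.55).

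Of 20 cytokine and chemokine genes 8 rose, with a median of 0.86. *Cxcl5* was at 75.5, 14.4, 30.7 and 18.5 CPM in the colons and 172, 159 and 249 CPM in the tumors (log2 fold change 2.49, SE 0.54). *Cxcl3*, *Cxcl1* and *Cxcl2* rose by 2.79 log2 units (SE 0.50), 1.57 (SE 0.46) and 1.49 (SE 0.48), *Cxcl1* not with the block. *Il23a*, the p19 subunit of IL-23, rose by 2.48 log2 units (SE 0.65), and *Il11*, a stromal cytokine of the IL-6 family, by 1.77 (SE 0.49). The number that rose was 4 without tumor 544 and 3 without colon 535. *Il11* was not called without colon 535 or 543, at log2 fold changes of 1.58 to 1.65. *Cxcl1* was not called without colon 535, 543 or 544 or without tumor 544, at log2 fold changes of 1.27 to 1.47. *Cxcl2* was not called without colon 535, 543 or 544 or without tumor 527 or 544, at log2 fold changes of 1.23 to 1.44.

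Of 15 neutrophil genes, 0 were DEGs by edgeR and 1 by DESeq2, 3 had an unadjusted p under 0.05, and the median was 0.62, or -0.11 without tumor 544. *S100a9*, an abundant neutrophil protein, was at 102, 21.7, 36.7 and 13.2 CPM in the colons and 84.0, 88.5 and 273 CPM in the tumors. Colon 527 was above tumor 527, tumor 544 was above all other libraries, and the log2 fold change of 1.80 (SE 0.72) had an adjusted p of 0.0682. *Retnlg* (log2 fold change 1.41, SE 0.56) and *Trem1* (log2 fold change 0.95, SE 0.42) also had colon 527 above tumor 527 and tumor 544 above all other libraries.

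Genes of type 2 immunity and mast cells also divided. *Ccl24*, an eosinophil chemokine, and *Il1rl1*, the IL-33 receptor, rose by 3.61 log2 units (SE 0.47) and 1.97 (SE 0.35), while *Ccl11*, another eosinophil chemokine, and the eosinophil receptor gene *Siglecf* fell by 1.49 (SE 0.23) and 2.87 (SE 0.47). *Retnla*, a product of alternatively activated macrophages, was at 2.10 to 8.15 CPM in the colons and without a count in the tumors, at least 127-fold lower. *Cma1*, a chymase gene, rose by 2.16 (SE 0.35), the only call among 10 mast cell genes, and *Cpa3*, which the same cells make, had a log2 fold change of -0.97 (SE 0.38).

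Of 24 type I interferon-stimulated genes 8 fell and 16 were not called, with a median of -0.81, and with the mouse as a block 7 fell. *Gvin1*, a large interferon-induced GTPase, was at 168, 188.1, 158 and 153 CPM in the colons and 30.1, 28.4 and 31.5 CPM in the tumors (log2 fold change -2.46, SE 0.15). *Gbp7*, *Ddx60*, *Oas3*, *Oasl2* and the RNA sensor *Ifih1* fell by 1.66 log2 units (SE 0.14), 2.05 (SE 0.32), 1.5 (SE 0.25), 1.37 (SE 0.19) and 1.25 (SE 0.16). Counts and median were similar without tumor 544, at 10 genes and -0.87.

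Calls among genes that IFN-γ induces depended on the libraries used. Of 20 tested, 4 fell, close to the 16.4% of all genes tested, with a median of -0.57. Without tumor 544, 13 fell, with a median of -1.27. Without colon 535, 1 fell, with a median of -0.54. *Cxcl10*, a T cell chemokine, was at 18.9, 10.2, 8.31 and 14.3 CPM in the colons and 5.40, 3.08 and 33.5 CPM in the tumors, so tumor 544 was above all colons and the other 2 tumors below all of them. Its log2 fold change was 0.15 (SE 0.74) with tumor 544 and -1.58 without it. *Ciita*, the master regulator of MHC class II genes, fell in all 3 mice, with 23.9 to 51.9 CPM in the colons against 5.89 to 7.67 CPM in the tumors (log2 fold change -2.34, SE 0.30), and *Ido1*, *Gbp5* and *Nlrc5* fell by 1.82 (SE 0.57), 1.09 (SE 0.32) and 1.06 (SE 0.22), *Nlrc5* not with the block. *Ido1* was not called without colon 535, 543 or 544 or without tumor 527 or 543, at log2 fold changes of -1.90 to -1.44. *Gbp5* was not called without colon 527, 535 or 544 or without tumor 527 or 543, at log2 fold changes of -1.11 to -0.83. *Nlrc5* was not called without colon 535 or without tumor 527 or 543, at log2 fold changes of -0.94 to -0.93.

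Of 9 MHC class II genes 4 fell, 9 without tumor 544 and 2 without colon 535. *H2-Aa* was at 454, 1154, 352 and 749 CPM in the colons and 116, 165 and 322 CPM in the tumors (log2 fold change -1.72, SE 0.50), and *H2-Eb1*, *H2-Oa* and *H2-Ob* fell by 1.54 (SE 0.44), 2.91 (SE 0.53) and 2.83 (SE 0.52). *H2-Aa* was not called without colon 535 or 544 or without tumor 527 or 543, at log2 fold changes of -1.67 to -1.33. *H2-Eb1* was not called without colon 535 or 544 or without tumor 527 or 543, at log2 fold changes of -1.46 to -1.27. Among 13 DNase and DNA sensing genes, *Tlr9*, the endosomal receptor of unmethylated DNA, fell by 2.70 log2 units (SE 0.33), and *Sting1*, the adaptor of cytosolic DNA sensing, rose by 1.27 (SE 0.25), with 35.7 to 68.0 CPM in the colons against 104 to 157 CPM in the tumors. *Samhd1*, *Tbk1* and *Dnase2a* had log2 fold changes of -0.79, -0.68 and 0.31.

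**Figure D5:**
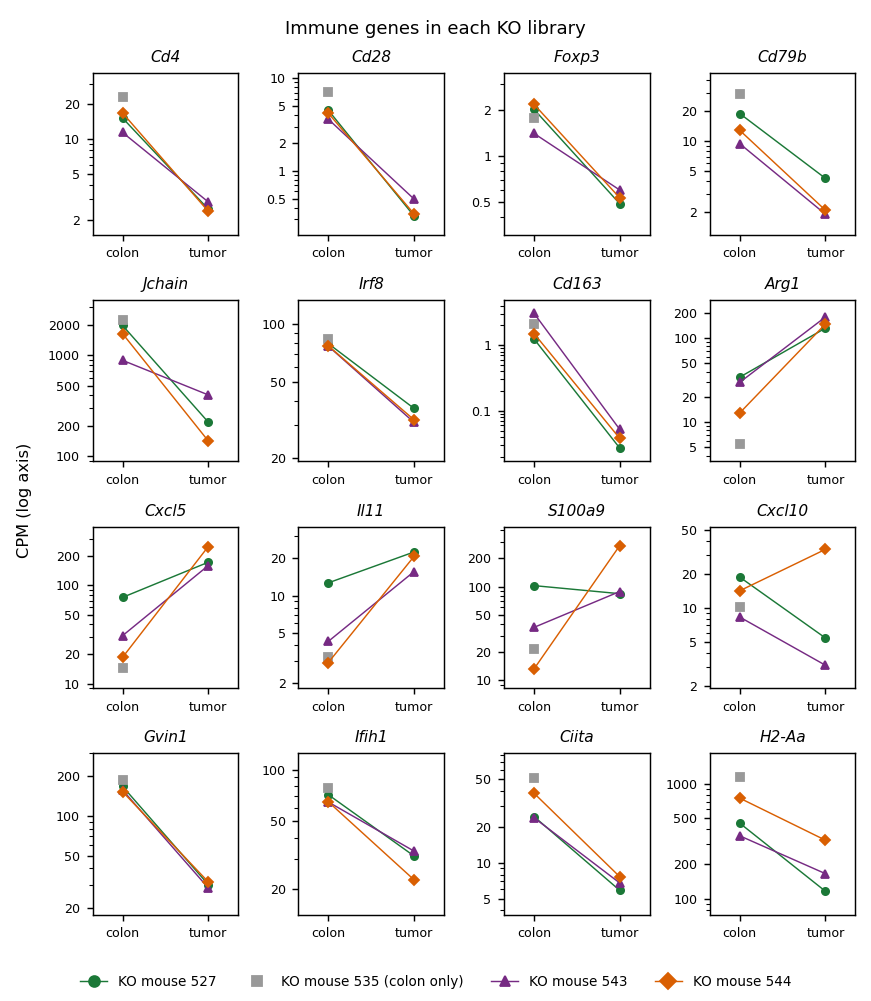
CPM on log axes of 16 immune genes in each KO library, with lines joining the D80 colon and the tumor of the same mouse and grey squares for the colon of mouse 535. *Cd4*, *Cd28*, *Cd79b*, *Cd163*, *Gvin1* and *Ciita* lines fall in each mouse, *Arg1*, *Cxcl5* and *Il11* lines rise, and *S100a9* and *Cxcl10* differ in direction between mice.

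Enzymes of drug and retinoid metabolism were among the most widely lowered groups. Of 23 tested, 18 fell and 2 rose, with a median of -2.46. *Aldh1a1*, which makes retinoic acid, was at 21.7, 49.2, 50.1 and 49.3 CPM in the colons and 3.67, 3.48 and 3.78 CPM in the tumors (log2 fold change -3.54, SE 0.32). *Sult1a1*, *Cyp2c65* and *Cyp4f14* fell by 4.45 log2 units (SE 0.49), 5.10 (SE 0.55) and 3.80 (SE 0.48). The glutathione transferase gene *Gsta4* and the sterol hydroxylase gene *Cyp27a1* rose by 1.36 log2 units (SE 0.20) and 1.03 (SE 0.13), the latter not with the block. Without colon 535, *Cyp27a1* was not called, at a log2 fold change of 0.98.

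Ketogenesis and fatty acid genes fell in 5 of 18 cases, beside 16.4% of all genes tested, with a median of -0.64. *Slc5a8*, a butyrate transporter, was at 161, 217, 136 and 148 CPM in the colons and 27.4, 15.7 and 12.2 CPM in the tumors (log2 fold change -3.16, SE 0.31). *Ppara*, a nuclear receptor that drives fatty acid oxidation genes, fell by 2.84 log2 units (SE 0.29) and *Cpt1a* by 1.17 (SE 0.21). In the glycolysis and hypoxia list the median was -0.04. *Car12* and *P4ha1* fell by 2.72 log2 units (SE 0.20) and 1.12 (SE 0.21), and *Slc16a3*, a lactate exporter, rose by 1.18 (SE 0.27), not with the block. Without tumor 544, *Cpt1a* was not called, at a log2 fold change of -0.97. *P4ha1* was not called without colon 544 or without tumor 527, at log2 fold changes of -1.0 to -0.94.

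Nuclear genes of oxidative phosphorylation had a median of 0.33, and -0.06 without tumor 544. *Ndufa4*, the only member called, was at 256, 252 and 1022 CPM in the tumors and 137 to 144 CPM in the colons, and with the block or without tumor 544 it was not called (log2 fold change without it 0.89). The 13 mitochondrially encoded mRNAs had a median of 0.43 with tumor 544 and -0.64 without it. The part of that library's RNA composition in these values was not tested.

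Of 15 prostaglandin genes 7 fell and 1 rose, with a median of -0.95. *Hpgd*, which inactivates prostaglandin E2, was at 47.0, 103, 56.7 and 64.4 CPM in the colons and 17.7, 16.5 and 10.7 CPM in the tumors (log2 fold change -2.17, SE 0.30), and the transporter *Slco2a1* fell by 1.64 (SE 0.19). The receptor genes *Ptger3* and *Ptgir* and the prostacyclin synthase *Ptgis* fell by 2.64 log2 units (SE 0.37), 1.78 (SE 0.34) and 2.08 (SE 0.38), and *Ptgds* rose by 2.63 (SE 0.51). Of 15 clock genes 6 fell, *Hlf* by 3.44 log2 units (SE 0.37), *Dbp* by 1.84 (SE 0.33), *Bhlhe41* by 1.85 (SE 0.33) and *Nr1d1* by 1.47 (SE 0.25), and *Npas2* rose by 1.26 (SE 0.27). The hour of sampling is not stated. *Ier3*, an immediate early gene, rose by 1.70 log2 units (SE 0.35), and the heat shock genes *Hspa1a* and *Hspa1b*, near-identical copies, fell by 2.15 (SE 0.57) and 1.94 (SE 0.56), not with the block, with colon 544 at 89.5 CPM for *Hspa1a* and the other colons at 21.2 to 25.1 CPM. Without tumor 544, *Hspa1b* was not called, at a log2 fold change of -1.70.

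WT tumors against WT D80 colon gave 1520 genes that rose and 2570 that fell, of 19007 tested. A model over the 16 libraries tested whether tumor minus colon differed between genotypes. By edgeR 0 of 20391 genes were DEGs for that difference, the lowest adjusted p was 0.419, the unadjusted p was below 0.05 for 2385 genes (11.7%), and DESeq2 also called 0. No change described above was therefore shown to be particular to KO mice. With the mouse as a replicate block, *Cpb1*, a pancreatic carboxypeptidase gene, was the 1 gene called (0.0049% of those tested). That call rests on 1 library, the colon of KO mouse 543, at 131.7 CPM against 0.0846 to 0.272 CPM in the other KO colons.

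The type I interferon-stimulated list was among the lists with medians of opposite sign in the genotypes. Its median was -0.81 in KO and 1.33 in WT, where 3 genes rose, and 21 of 24 members had an unadjusted p under 0.05 for the difference, beside 11.7% of all genes. No member passed the adjustment, the lowest adjusted p being 0.419. The list holds genes, among them *Gvin1*, *Gbp7*, *Ddx60*, *Oas3* and *Oasl2*, that the study named as lower in KO than in WT tumors. That result came from these same tumor libraries, which also enter the difference. The share of members with a small p, with or without WT colon 581, is therefore not an independent test. The D80 colons enter the difference too. Each KO D80 colon was above each WT D80 colon for *Gvin1*, *Gbp7* and *Oasl2*. Their lowest KO colon values were 153.12, 23.45 and 83.87 CPM, and their highest WT colon values 122.55, 18.84 and 79.47 CPM. For *Ddx60* and *Oas3* the KO and WT D80 colons overlapped. The part of the D80 colons in the opposite signs was not tested. The WT D80 colon of mouse 581 stood apart from the other 3 WT colons, with 14.8% of its counts from mitochondrially encoded mRNAs and 7.28% from ribosomal protein mRNAs, against 5.37 to 5.77% and 4.06 to 4.12%. Its rho with exon length was -0.57, against 0.49 to 0.56 in the other 3. Without colon 581 the WT median was 1.03, with 2 genes that rose. In that setting 20 of 24 members had an unadjusted p under 0.05 for the difference, beside 6.55% of all genes. The lowest adjusted p was then 0.685 by edgeR. For IFN-γ-induced genes the medians were -0.57 and 1.61, and 12 of 20 had an unadjusted p under 0.05 for the difference. Without colon 581 the WT median was 1.34, and 9 had such a p. Opposite signs were not limited to interferon lists. Nuclear oxidative phosphorylation genes had medians of 0.33 in KO and -0.77 in WT, and 12 of 20 had such a p. Without colon 581 their WT median was -0.28, and 10 had such a p. Mitochondrially encoded mRNAs had medians of 0.43 and -1.86, and 9 of 13 had such a p, or 2 without colon 581. For Wnt targets the medians were 2.11 in KO and 3.08 in WT, for T cell genes -1.61 and -0.49, and for neutrophil genes 0.62 and 1.64. The smooth muscle medians were -3.82 and -3.34, and the goblet cell medians -2.11 and -2.43.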

How the data were processed

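RNA was sequenced as single-end 75 nt reads. The authors used STAR 020201 with the mm10 genome and featureCounts (Subread 1.6.2) with GENCODE genes, and deposited 1 table of raw counts per gene. Whether counting used strand is not stated, so a gene and an antisense or overlapping partner, as in the HoxD cluster, cannot be told apart, nor can near-identical copies (Krt6a/Krt6b, Hspa1a/Hspa1b, Cyp2c genes).

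Counts of KO tumor and KO D80 colon were fitted alone with edgeR 4.0.16 (quasi-likelihood test, TMM, filterByExpr, R 4.3.3), with Benjamini-Hochberg adjustment over all genes. SE was taken as the absolute log2 fold change divided by the root of the F statistic. CPM were computed with TMM composition factors over the 16 tumor and D80 colon libraries. A floor of 3 counts over a group bounds folds against groups at 0, and intervals cover counting error only. DESeq2 1.42.0, limma 3.58.1 (voom with quality weights), other normalizations and filters, a replicate block and leaving out libraries were alternatives, and the fits were tested on simulated data. The 3 same-numbered tumor and colon samples came from the same animal, so the number pairs them. Their deviations from group means correlated with r = 0.095, 0.0657 and 0.161. Tumor and colon of different animals gave r from -0.205 to 0.126. Tumor 527 had a higher r with colon 535 (0.126) than with its own colon, so these correlations do not single out the animal.

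Named genes were *Dnase1l3*, the 15 largest increases and 15 largest decreases among DEGs with non-overlapping groups and a mean of at least 5 CPM, up to 6 members with the smallest p per list, members called against their list, and all stem cell and Wnt target genes. *Cdx1*, *Cxcl10*, *Hnf4a* and *Muc2* were added after their values were seen, and some genes the rule selects are not reported here. The comparison and the lists were chosen with earlier results of these data known.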

Additional observations from a re-analysis of the deposited data

Results flagged for a closer look

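Among the 4 KO D80 colons, 27 of 276 named genes had 1 library far from the other 3 by Dixon's test, where chance alone gives about 5% of groups. The colon of mouse 535 was the library in 21 of them. It was low for Wnt target, stem cell and progenitor genes: *Dkk2* (2.88 CPM), *Lgr5* (9.28 CPM), *Mex3a* (3.75 CPM), *Myc* (18.4 CPM), *Nkd1* (15 CPM), *Notum* (2.70 CPM), *Prox1* (9.56 CPM), *Rnf43* (33.8 CPM), *Smoc2* (48.2 CPM), *Sp5* (1.25 CPM) and *Wif1* (8.97 CPM), besides *Bmp7* (7.08 CPM), *Msln* (1.73 CPM) and *Phlda1* (13.6 CPM). It was high for *Aqp8* (559 CPM), *Creb3l1* (139.8 CPM), *Gbp7* (25.8 CPM), *Muc2* (6041 CPM), *Retnla* (8.15 CPM), *Slc9a2* (242 CPM) and *Trpm5* (8.85 CPM), genes of colonocytes, goblet cells, tuft cells and immune cells. For *Lgr5* the other 3 colons had 31.3 to 35.9 CPM, and for *Notum* 24.4 to 31.8 CPM. The D80 colons of mice 527, 543 and 544 came from tumor-bearing mice by their labels, and no tumor library of mouse 535 was analysed here. The part of that difference in these values was not tested.

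The colon of mouse 527 stood apart for *Aldh1a1* (low, 21.7 CPM) and *Apln* (2.77 CPM). The colon of mouse 544 was high for *Cx3cr1* (20.3 CPM), *Hspa1a* (89.5 CPM) and *Hspa1b* (134 CPM). *Cpb1*, a digestive enzyme of the exocrine pancreas, was at 131.7 CPM in the colon of mouse 543 and at 0.0846 to 0.272 CPM in the other 3 colons. The same gene had a tumor minus colon value in KO that was lower than in WT by a log2 difference of -10.59 with the mouse as a replicate block (adjusted p = 0.00139 by edgeR).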

How the results depend on the processing

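The number of genes that rose moved most: it was 1160 with the mouse as a replicate block, 1241 with voom and quality weights, 1324 without colon 535 and 1321 without both libraries of mouse 544, and it ranged from 1324 to 2585 when 1 library was left out. The number that fell was 2117 with at least 10 counts in every library and ranged from 2605 to 3250 when 1 library was left out. DESeq2 called 2406 and 3530. The difference between genotypes gave 1 gene with the replicate block and 0 in the other alternatives. The mucin and trefoil median became -0.80 and the type 2 median 0.19 with at least 10 counts in every library, which drops genes that were low in 1 group. Without tumor 544 the neutrophil median was -0.11, with a highest value of 0.96 when another library was left out, and without both libraries of mouse 544 it was -0.21 and the mitochondrially encoded median -0.69. *Cxcl10* had a log2 fold change of -1.57 with voom, -1.58 without tumor 544 (adjusted p = 0.0112 by edgeR) and -1.53 without both libraries of mouse 544, and at most 0.64 when another library was left out. The cause of these changes was not tested.

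Of 241 called genes named here, 195 passed both thresholds in each of the 17 alternatives that tested them. The block lost 19 of these calls, each named beside its value. Leaving out colon 535 lost 22 and leaving out tumor 544 lost 17, among them *Cxcl2*, *Hoxa2*, *Saa3*, *Esm1* and *Rrm2* in both cases. Leaving out colon 527 lost 8, colon 543 15, colon 544 15, tumor 527 17 and tumor 543 11, with *Dmbt1*, *Ido1*, *Gbp5*, *Muc1* and *Muc3* among those lost in at least 1 of them. The cause was not tested. With 3 tumors and 1 of them apart in RNA composition, changes close to 2-fold are the least certain here. The alternatives without both libraries of mouse 544, without immunoglobulin genes and, for the WT lists, without WT colon 581 were chosen after seeing the data.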
